A study of Mus musculus with 2 samples.

Results

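The 34 genes described here encode aminoacyl-tRNA synthetases, and they were followed in droplet sequencing of single pericytes (PCs), the cells that wrap capillaries, cultured from mouse brain. They were chosen by symbol from the 31053 genes listed. Of the 34, 19 encode the cytosolic enzymes and 15, whose symbols end in 2, the mitochondrial ones. Other synthetase genes were not analysed here. There were 2 droplet libraries, 1 of PCs at passage 5 (PC5) and 1 of PCs at passage 20 (PC20), and no treatment is named for either culture. The PCs of both came from brains of wild-type C57BL/6N females aged 6-8 weeks, pooled from 6 mice per isolation. By the methods of the study each passage came from its own isolation, while the deposited description speaks of 1 isolation, so passage and isolation cannot be told apart.

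An aminoacyl-tRNA synthetase joins an amino acid to the tRNA that carries its anticodon, the step on which the accuracy of translation rests. The cytosol and the mitochondrial matrix each charge their own tRNAs, mostly with enzymes from separate nuclear genes. Several cytosolic enzymes sit in a multi-tRNA synthetase complex held together by scaffold proteins. In many cell types, genes of cytosolic synthetases are switched on with those of amino acid synthesis and import by the transcription factor ATF4 when amino acids are short or proteins misfold.

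The cells kept had more than 1000 genes and under 20% of UMIs from mt- genes. They numbered 9950 in PC5, with 223054273 UMIs and a median of 21700 UMIs per cell, and 4749 in PC20, with 191122251 UMIs and a median of 33424 per cell. A UMI (unique molecular identifier) tags 1 captured RNA molecule. There were 20 cell barcodes that occurred in both libraries. Of the pericyte markers, *Pdgfrb*, the PDGF-B receptor, stood at 44.6 counts per 1000000 UMIs (CPM) in PC5 and 5.43 in PC20. *Cspg4* stood at 5.55 and 0.0994 CPM, and *Anpep* at 1.93 and 3.00 CPM. For *Rgs5* 405 UMIs were counted in PC5 against 0 in PC20, and for *Abcc9* 1 UMI in each. Few of these markers thus backed the label of PCs at the RNA level, above all in PC20. In the study the label itself followed the origin of the cells, and PC identity was checked by PDGFRβ expression. Summed markers of other cell types went from 1302 to 101 CPM for 4 fibroblast genes, from 282.5 to 49.5 CPM for 3 smooth muscle genes, from 13.6 to 0.235 CPM for 4 endothelial genes and from 151.4 to 228.5 CPM for 4 astrocyte genes, the last almost wholly *Slc4a4*. The 4 microglial genes came to 0.525 and 0.0157 CPM, with *Cd48* and *Adgre1* at 0 in both libraries, and the 3 oligodendrocyte genes to 0.915 and 0.895 CPM, with *Mobp* at 0. In PC5 the fibroblast, smooth muscle and endothelial sums also rested mostly on 1 gene each. These were *Col3a1*, at 1158 in PC5 and 100.8 CPM in PC20, *Tagln*, at 219.5 and 0.230 CPM, and *Kdr*, at 12.8 and 0.0680 CPM. Of the other fibroblast genes, *Pdgfra* stood at 88.6 and 0.131 CPM, *Dcn* at 51.3 and 0.167 CPM and *Lum* at 3.57 and 0 CPM. *Acta2*, another smooth muscle gene, stood at 62.8 and 49.2 CPM. The astrocyte genes other than *Slc4a4* were all lower in PC20. *Aldh1l1* stood at 7.35 and 0.0262 CPM, *Gfap* at 0.435 and 0 CPM and *Aqp4* at 0.126 and 0.00523 CPM. The part of these shifts in the results that follow was not tested.

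The synthetase genes as a group were far more abundant in PC20. Together they made up 1114 in PC5 and 3354 CPM in PC20. Each gene is given as its CPM in the 2 libraries and as the log2 ratio of PC20 over PC5, in which a positive value means higher in PC20. The log2 ratio was above 0 for 30 of the 34 genes and below 0 for *Mars2*, *Qars*, *Hars* and *Cars2*. Over all 34 genes its median was 1.14, against 0.0155 over the 9869 genes that had a UMI in at least 10% of cells, taken as the mean of both libraries. That filter was passed by 32 of the 34, the other two being *Aars2* and *Pars2*. Of the 32, 24 lay above 0.5 and 18 above 1, while 0 lay under -0.5. Some mitochondrial genes among them passed the filter only through PC20, as given below. Of all genes past the filter, 31.7% lay above 0.5 and 30.1% under -0.5, and 18.0% lay above 1 and 17.0% under -1. With 1 library per passage there is no test. The 95% intervals cover counting error only.

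Cytosolic genes accounted for most of this. Their sum was 983.7 in PC5 and 3139 CPM in PC20, or 1.67 as a log2 ratio (95% interval 1.67 to 1.68). The median over the 19 genes was also 1.67. All 19 passed the filter, and 16 of them lay above 0.5 and 13 above 1. The mitochondrial sum was 130.8 in PC5 and 214.9 CPM in PC20, or 0.72 on the log2 scale (0.69 to 0.74). Here the median over 15 genes was 0.73, and of the 13 past the filter 8 lay above 0.5 and 5 above 1. Some passed only through PC20, where they were higher. *Rars2*, *Nars2*, *Ears2* and *Sars2* had a UMI in 9.79%, 9.46%, 6.41% and 7.29% of PC5 cells, each under 10%. In PC20 they had one in 33.7%, 29.8%, 22.6% and 19.5% of cells. All of these lay above 0.5, and *Rars2*, *Nars2* and *Ears2* also above 1, so the mitochondrial counts rest partly on the filter. With a pseudocount of 1 on means per 10000 UMIs, the mitochondrial median was 0.054 and 1 gene, *Lars2*, lay above 0.5. The cytosolic median was then 0.66, with 12 genes above 0.5. The share of all genes above 0.5 was not computed with the pseudocount. Without a pseudocount the cytosolic median exceeded the mitochondrial one by 0.94 on the log2 scale.

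**Figure D1:**
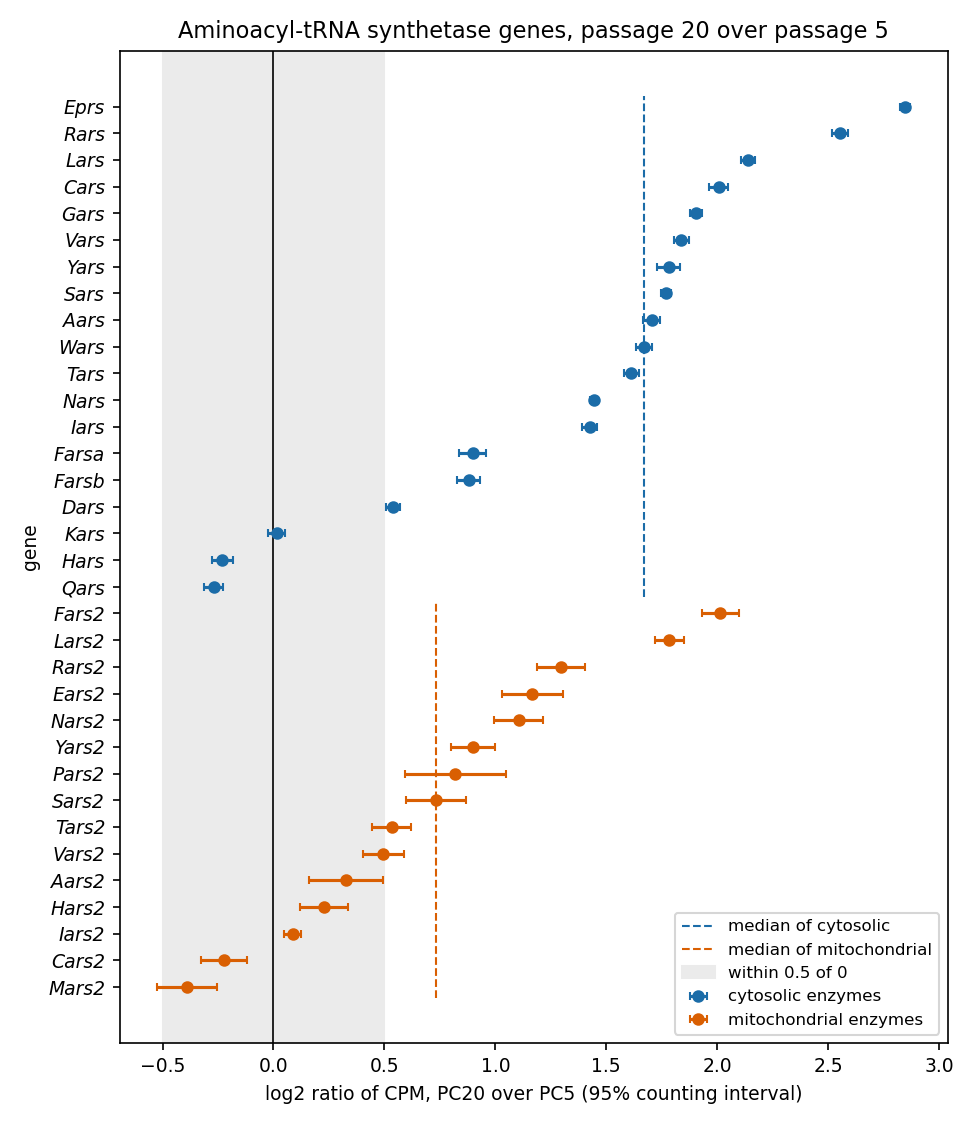
Log2 ratio of PC20 over PC5 CPM (x axis) for each of the 34 synthetase genes (y axis, ordered by ratio within the cytosolic genes in blue and the mitochondrial genes in orange); bars are 95% counting intervals, dashed lines the medians of the groups and the grey band the range within 0.5 of 0. The cytosolic genes run from -0.27 (*Qars*) to 2.85 (*Eprs*) and the mitochondrial genes from -0.39 (*Mars2*) to 2.01 (*Fars2*).

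Among the 7 members that belong to the multi-tRNA synthetase complex, which holds other enzymes too, the range was the widest. *Eprs* encodes the bifunctional glutamyl-prolyl-tRNA synthetase and lies on chromosome 1 at 185363044-185428360 (mm10, plus strand). It stood at 82.7 in PC5 and 595 CPM in PC20, a 7.19-fold difference (log2 ratio 2.85, 2.82 to 2.87), the highest ratio of all 34 genes. *Rars* (arginyl; chromosome 11, 35808381-35834506, minus strand) came next, at 32.5 and 191 CPM (2.55, 2.52 to 2.59). For *Lars* (leucyl) the levels were 52.0 and 229 CPM (2.14, 2.11 to 2.17), and for *Iars* (isoleucyl) 45.4 and 122 CPM (1.43, 1.39 to 1.46). These 4 genes were at least 2.69-fold higher in PC20. The other three were not. *Dars* (aspartyl) stood at 63.5 and 92.2 CPM (0.54, 0.51 to 0.57). *Kars*, whose transcripts encode both the cytosolic and the mitochondrial lysyl enzyme, stood at 53.7 in PC5 and 54.2 CPM in PC20 (0.014, -0.024 to 0.053), the smallest difference of any member. *Qars* (glutaminyl) was lower in PC20, at 43.9 and 36.4 CPM (-0.27, -0.31 to -0.23). The scaffold genes of the complex did not share the ratio of *Eprs* either. *Aimp1* stood at 151.2 and 235.3 CPM (0.64, 0.62 to 0.66), *Aimp2* at 11.01 and 24.5 CPM (1.16, 1.09 to 1.23) and *Eef1e1* at 60.3 and 75.3 CPM (0.32, 0.29 to 0.35). The median over the 7 complex members was 1.43, and over the 12 other cytosolic genes 1.69.

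Outside the complex, the ratios lay closer together. *Cars* (cysteinyl) stood at 24.3 in PC5 and 97.5 CPM in PC20 (2.01, 1.96 to 2.05). *Gars*, which encodes the glycyl enzyme of both compartments, stood at 67.2 and 252 CPM (1.90, 1.88 to 1.93). *Vars* (valyl) stood at 39.6 and 142 CPM (1.84, 1.80 to 1.87). For each of the 3, PC20 held at least 3.58 times the CPM of PC5. A further 6 genes had ratios between 1.44 and 1.78. *Yars* (tyrosyl) went from 18.5 CPM in PC5 to 63.5 CPM in PC20 and *Sars* (seryl) from 101.5 to 345.7 CPM. *Aars* (alanyl) stood at 34.4 and 112 CPM, *Wars* (tryptophanyl) at 35.7 and 114 CPM and *Tars* (threonyl) at 43.9 and 134 CPM. *Nars* (asparaginyl) stood at 168 and 457 CPM, or 1.44 as a log2 ratio (1.43 to 1.46). The *Aars* value is uncertain, because the last exon of *Aars* contains the whole of the single-exon gene *Exosc6* on the same strand (chromosome 8, 111056339-111057664, 1326 bases), and *Exosc6* itself had 0 UMIs in both libraries. Exact runs shared with transcripts of other genes were longest for *Eprs* (113 bases, with *Gm42372*) and for *Iars* (107 bases, with *Gm4849*, a processed pseudogene), and reached 86 bases for *Cars2*, 82 for *Fars2* and *Qars*, 80 for *Yars*, 79 for *Tars* and 76 for *Mars2*, so reads from those stretches could come from either gene.

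The phenylalanyl enzyme is built from 2 kinds of subunit, alpha from *Farsa* and beta from *Farsb*. *Farsa* stood at 15.2 in PC5 and 28.4 CPM in PC20 (0.90, 0.84 to 0.96), and *Farsb* at 22.0 and 40.5 CPM (0.88, 0.83 to 0.93). The ratios of both subunits thus lay within each other's counting interval, well under the cytosolic median. *Hars* (histidyl) was the other cytosolic gene lower in PC20, at 39.7 and 33.9 CPM (-0.23, -0.28 to -0.18). By structural class, the median was 1.84 over the 9 class I cytosolic genes and 1.17 over the 10 class II genes. The mitochondrial medians by class were 0.70 and 0.73.

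**Figure D2:**
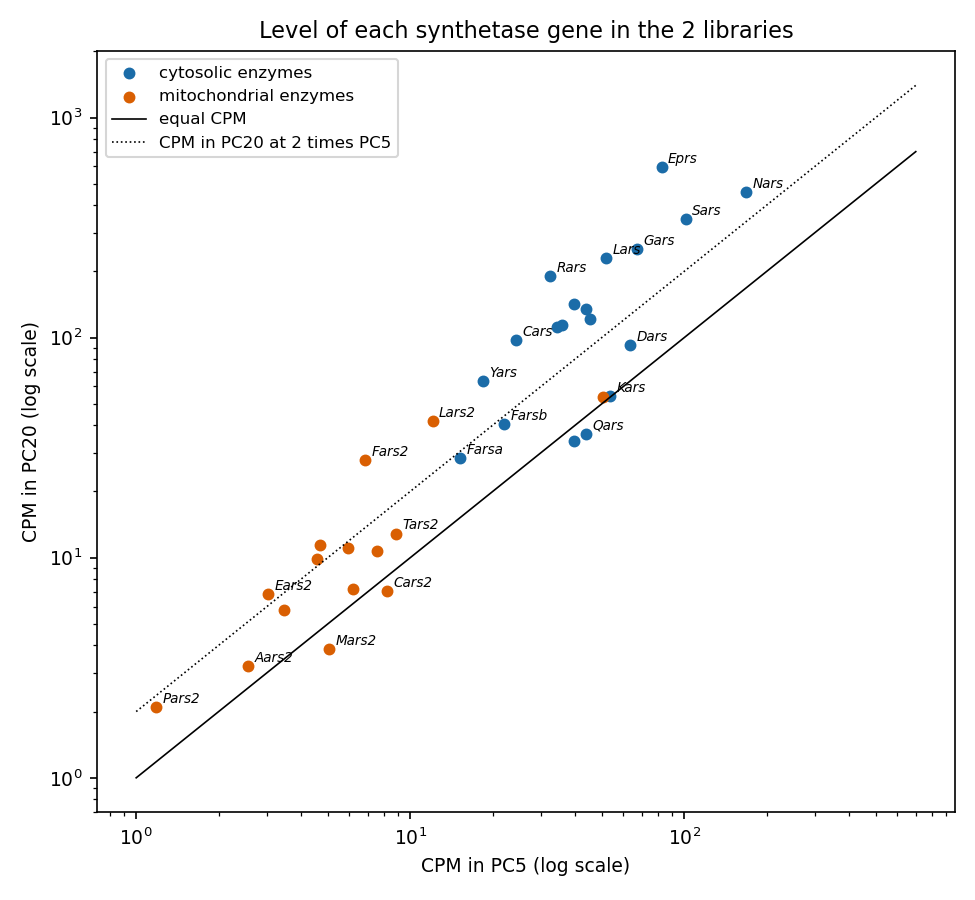
CPM of each synthetase gene in PC5 (x axis, log scale) against its CPM in PC20 (y axis, log scale), with cytosolic genes in blue, mitochondrial genes in orange, a solid line at equal CPM and a dotted line at 2 times that; 21 genes are named. Most cytosolic points lie above the dotted line, *Eprs* farthest at 82.7 and 595 CPM, while *Kars* lies on the solid line and *Qars* and *Hars* below it.

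Of the cytosolic genes, 12 are often listed as ATF4-responsive: *Aars*, *Cars*, *Eprs*, *Gars*, *Iars*, *Lars*, *Nars*, *Sars*, *Tars*, *Vars*, *Wars* and *Yars*. The list follows general knowledge and no single source, and it was drawn up with earlier results of these data known, so the split is a description. All 12 lay above 1, from 1.43 (*Iars*) to 2.85 (*Eprs*), with a median of 1.78. Of all genes past the filter, 18.0% lay above 1. Of the 7 not so listed (*Dars*, *Farsa*, *Farsb*, *Hars*, *Kars*, *Qars* and *Rars*) 1 lay above 1, *Rars* at 2.55, and their median was 0.54. The sum of the listed genes went from 713.2 to 2663 CPM and that of the others from 270.5 to 476.5 CPM. Other genes of the ATF4 axis had a higher median ratio. Over 26 of them the median log2 ratio was 2.30, and 25 lay above 0.5 and 22 above 1. The shares of all genes past the filter were 31.7% and 18.0%. This list too was drawn up with earlier results of these data known. Of its genes, *Trib3*, *Chac1*, *Pycr1*, *Slc6a9*, *Stc2* and *Cth* had a UMI in under 10% of PC5 cells and passed the filter through PC20. *Atf4* itself stood at 104.4 in PC5 and 433.3 CPM in PC20 (2.05). *Asns*, the asparagine synthetase, stood at 12.7 and 261.5 CPM (4.36), and *Ddit3*, which encodes the stress factor CHOP, at 22.4 and 894 CPM (5.32). *Trib3*, a pseudokinase induced by ATF4, stood at 2.16 and 142.2 CPM (6.04). The exception was *Sesn2*, at 39.7 and 33.9 CPM (-0.22).

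ATF4 binds with a C/EBP partner to a composite element of the form TGATGNAA, here searched on both strands (the reverse is TTNCATCA, where N is any base) in RefSeq promoters of GRCm38.p6, from 250 bases before to 50 bases after each gene's start. The table held 25 of the 34 genes, 12 of them cytosolic and 13 mitochondrial. It held no promoter of *Cars*, *Hars*, *Lars*, *Nars*, *Rars*, *Vars*, *Wars*, *Hars2* or *Pars2*. Of these, *Rars*, *Lars* and *Cars* had the highest cytosolic ratios after *Eprs*. A match was found in 5 of the 12 cytosolic genes and in 0 of the 13 mitochondrial genes, against 4.51% of all 27025 genes in the table. All 5 are on the ATF4-responsive list and lay between 1.43 and 1.90 in log2 ratio. For each of them a match is shown, not always the sole one, since these are the letters by which the 5 were found, with the match in capitals, 5′ to 3′ on the strand of the gene.
Aars, chr8:111033840-111033869, plus strand: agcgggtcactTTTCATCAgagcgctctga
Gars, chr6:55037960-55037989, plus strand: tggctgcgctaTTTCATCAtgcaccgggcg
Iars, chr13:49682126-49682155, plus strand: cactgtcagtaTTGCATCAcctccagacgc
Tars, chr15:11399655-11399684, minus strand: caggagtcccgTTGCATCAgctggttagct
Yars, chr4:129189895-129189924, plus strand: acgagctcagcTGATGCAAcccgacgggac
The match shown for *Gars* begins 30 bases before the start and that of *Tars* 15 bases before it. The others shown begin after it, at 9 bases for *Aars*, 7 for *Iars* and 3 for *Yars*. A match is a description of the sequence and not a bound site. The promoters of *Dars*, *Eprs*, *Farsa*, *Farsb*, *Kars*, *Qars* and *Sars* held no match in this window, although *Eprs* had the highest ratio of all.

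Most mitochondrial enzymes were sparser and moved less. *Fars2*, which encodes the single-chain phenylalanyl enzyme, stood at 6.85 in PC5 and 27.7 CPM in PC20 (2.01, 1.93 to 2.10), the highest mitochondrial ratio over summed UMIs. *Lars2* (leucyl) was next, at 12.1 and 41.6 CPM (1.78, 1.72 to 1.85). *Rars2* (arginyl) stood at 4.67 and 11.5 CPM (1.30, 1.19 to 1.40). *Ears2* (glutamyl) and *Nars2* (asparaginyl) were the other two above 1. Their levels were 3.03 and 6.81 CPM for *Ears2* (1.17, 1.03 to 1.30) and 4.58 and 9.85 CPM for *Nars2* (1.11, 0.99 to 1.22). *Yars2* (tyrosyl) stood at 5.92 and 11.05 CPM (0.90), *Sars2* (seryl) at 3.47 and 5.77 CPM (0.73) and *Tars2* (threonyl) at 8.91 and 12.9 CPM (0.53). *Vars2* (valyl) fell just short of the threshold, at 7.58 and 10.7 CPM (0.495, 0.401 to 0.589).

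At the other end, *Iars2* (isoleucyl) stood at 50.5 in PC5 and 53.6 CPM in PC20 (0.087, 0.049 to 0.126). *Hars2* (histidyl) stood at 6.20 and 7.25 CPM (0.23). *Cars2* (cysteinyl) and *Mars2* (methionyl) were lower in PC20. *Cars2* went from 8.23 CPM in PC5 to 7.05 CPM in PC20 (-0.22, -0.33 to -0.12) and *Mars2* from 5.05 to 3.86 CPM (-0.39, -0.52 to -0.25). The 2 genes under the filter were *Pars2* (prolyl), at 1.18 and 2.09 CPM (0.82, 0.59 to 1.05), and *Aars2* (alanyl), at 2.56 and 3.22 CPM (0.33, 0.16 to 0.49). No mitochondrial gene had a UMI in over 50% of cells once cells had been downsampled to 1 common number of UMIs (thinned). For all genes that share was not computed. *Iars2* was seen in 38.7% of thinned PC5 cells and 41.6% of thinned PC20 cells, and *Fars2* in 7.01% and 25.7%.

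Part of the *Lars2* value came from few cells. In PC20, 17 cells held 20 or more *Lars2* UMIs each, up to 66, and together 697 UMIs or 8.76% of all *Lars2* UMIs of that library. These cells were shallow, with a median of 4913 UMIs. PC5 had 0 such cells, and its highest count was 14. Without those cells the log2 ratio was 1.65 (1.59 to 1.72). The *Lars2* ratio was 2.07 in thinned cells and 2.24 as a mean over cells. It then lay above that of *Fars2*, at 2.03 and 2.07. A mean over cells gives shallow cells as much weight as deep ones. The 17 cells were removed only from the ratio over summed UMIs, so their part in the 2.24 was not tested. Across 4 equal groups of PC5 cells ordered by their share of mt- UMIs, *Lars2* stood at 7.17, 10.3, 12.9 and 19.5 CPM, and in PC20 at 42.3, 37.0, 37.0 and 50.8 CPM. The part of mitochondrial RNA in the *Lars2* value was not tested.

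Setting each cytosolic gene beside the mitochondrial gene for the same amino acid gave 15 pairs, in which *Eprs* and *Fars2* each occur more than once. The cytosolic ratio was higher in 12 of them and the mitochondrial ratio in 3. In all 15 the interval of the difference left out 0, but it covers counting error only. How often it leaves out 0 for other pairs of genes was not computed. The median difference was 1.08. It was widest for cysteine, where *Cars* exceeded *Cars2* by 2.23 (2.12 to 2.34), and for proline, where *Eprs* exceeded *Pars2* by 2.03 (1.80 to 2.25). Leucine and asparagine had the smallest positive differences, 0.35 (0.28 to 0.42) for *Lars* and *Lars2* and 0.34 (0.23 to 0.45) for *Nars* and *Nars2*. As a mean over cells the leucine pair turned, with a log2 ratio of 2.22 for *Lars* and 2.24 for *Lars2*. The shallow PC20 cells with many *Lars2* UMIs were kept in that mean. Both phenylalanine pairs went the other way. *Fars2* exceeded *Farsa* by 1.12 and *Farsb* by 1.13, and *Hars2* exceeded *Hars* by 0.46.

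**Figure D3:**
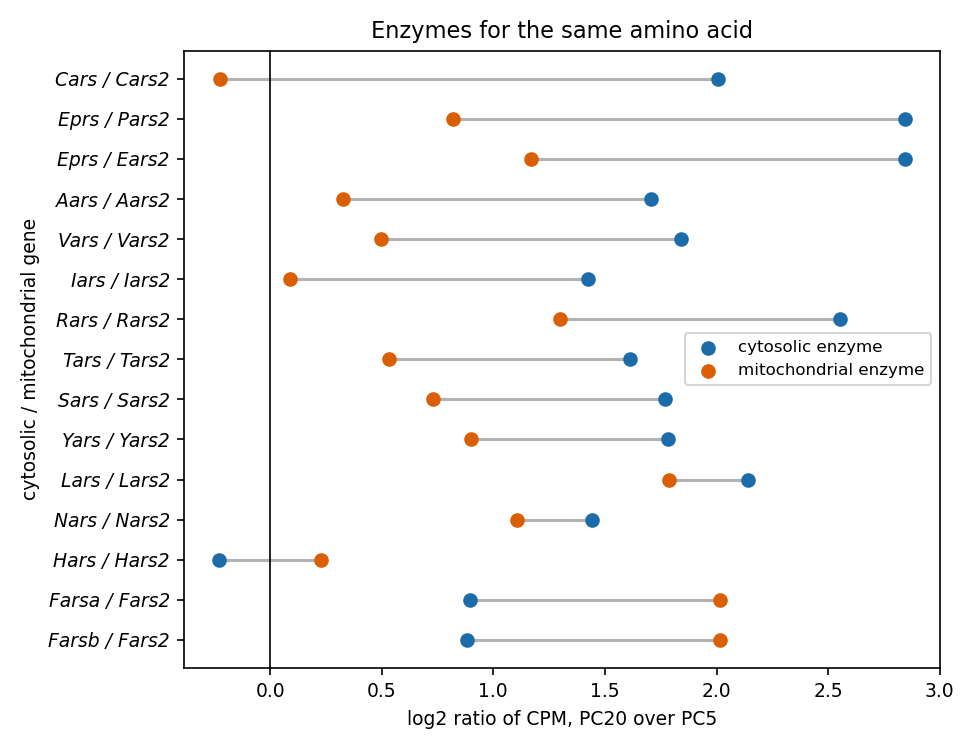
Log2 ratio of PC20 over PC5 CPM (x axis) of the cytosolic gene in blue and the mitochondrial gene in orange, joined by a line, for 15 pairs with the same amino acid (y axis). The cytosolic gene is higher in 12 pairs, and the exceptions are the pairs of *Fars2* with *Farsa* and *Farsb* and of *Hars2* with *Hars*.

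Other translation genes were less far apart between the passages than the cytosolic synthetases. Over 6 cytosolic elongation factors the median log2 ratio was 0.30, with 2 above 0.5. That is 33.3%, near the 31.7% of all genes past the filter. The highest was *Eef1a1*, which delivers charged tRNA to the ribosome, at 5326 in PC5 and 8046 CPM in PC20 (0.60). Over 10 mitochondrial translation factors the median was 0.77, close to the 0.73 of the mitochondrial synthetases. Of these factors 6 lay above 0.5 and 3 above 1, beside 31.7% and 18.0% of all genes past the filter. *Mtrf1* and *Mtrf1l* had a UMI in under 10% of PC5 cells and passed the filter through PC20. Among the mitochondrial factors *Tsfm*, the exchange factor of *Tufm*, stood at 13.0 and 43.4 CPM (1.74). *Tufm*, the elongation factor itself, stood at 33.5 and 23.8 CPM (-0.50). Of the 3 genes of the amidotransferase that makes mitochondrial glutaminyl-tRNA, *Gatc* had a ratio of 0.85, *Qrsl1* 0.52 and *Gatb* -0.096 (-0.25 to 0.06).

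Per cell, the difference was one of the whole distribution. After thinning, 8847 PC5 cells and 4474 PC20 cells remained, and 1103 and 275 cells were too shallow. The cytosolic genes together gave a mean of 10.1 UMIs per PC5 cell (SD 4.11 over cells) and 33.8 UMIs per PC20 cell (SD 10.97). The 10th to 90th percentiles ran from 5 to 15 UMIs in PC5 and from 20 to 48 in PC20. Those ranges did not overlap, while the tails beyond them did. The median cell had UMIs of 7 of the 19 genes in PC5 and of 13 in PC20, and 4 PC5 cells and 0 PC20 cells had none. For the mitochondrial genes the means were 1.35 and 2.41 UMIs, and 27.4% of PC5 cells and 11.1% of PC20 cells had none.

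**Figure D4:**
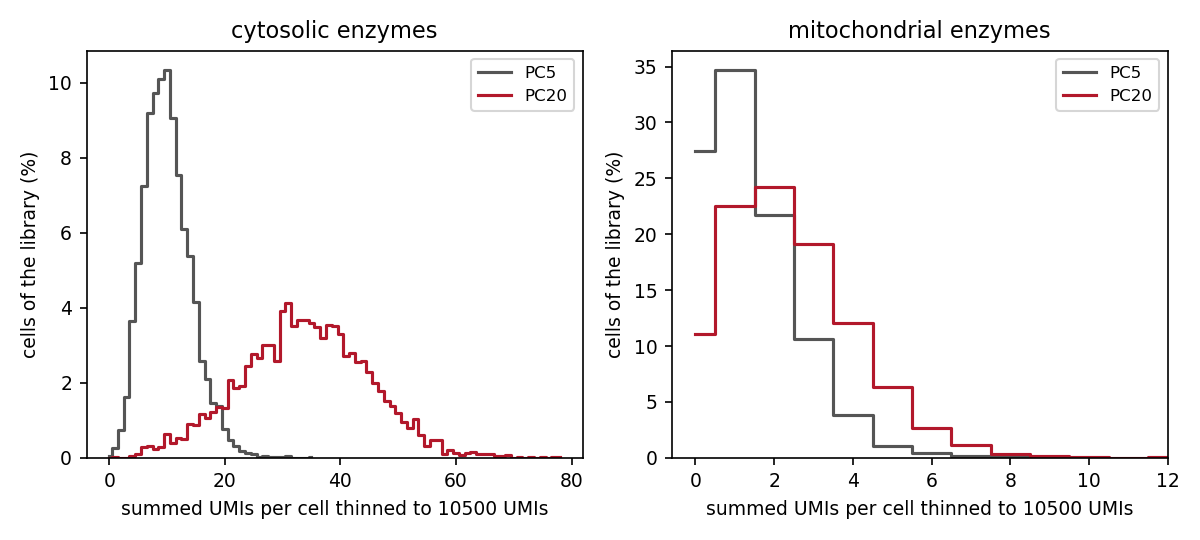
Share of thinned cells of a library (y axis, percent) by the summed UMIs per cell (x axis) of the 19 cytosolic genes on the left and the 15 mitochondrial genes on the right, for PC5 in grey and PC20 in red; the mitochondrial axis ends at 12 UMIs, above which lie 4 PC20 cells and 0 PC5 cells. The PC20 curve of the cytosolic genes sits to the right, with a median of 34 UMIs beside 10 for PC5, and the tails overlap.

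Of single genes, 3 cytosolic ones were seen in over 50% of thinned PC5 cells and 13 in over 50% of thinned PC20 cells. The share of all genes over 50% was not computed in either library. *Eprs* went from 55.3% to 98.6% of cells and from a mean of 0.865 to 6.43 UMIs per cell. *Rars* went from 27.9% to 80.8% of cells. Every cell needs these enzymes, so the cultures held no cell type without them against which free RNA in the droplets could be set. The Fano factor, the variance over the mean, is 1 for counts spread by sampling alone. Its median over the cytosolic genes was 1.08 in PC5 and 1.17 in PC20, and its highest value was 1.68, for *Eprs* in PC20. Over the mitochondrial genes the medians were 1.02 and 1.02. *Lars2* reached 2.41 in PC20. Where spread relative to the mean is alike, the Fano factor is higher at a higher mean. These values therefore do not rank the libraries or the genes by relative spread.

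Within each library, cells were ordered by the summed thinned UMIs of 9 ATF4 targets that are not synthetases (*Asns*, *Chac1*, *Trib3*, *Psat1*, *Sesn2*, *Ddit3*, *Atf5*, *Slc7a11* and *Nupr1*), and the upper and lower 25% of cells were set side by side. In PC5 the 2211 cells of the upper class had at least 6 such UMIs and the 2211 of the lower at most 2. The cytosolic sum was 992.3 CPM in the upper class and 925.3 CPM in the lower (log2 ratio 0.10, 0.07 to 0.13). The median over the 19 genes was 0.10, beside 0 over all genes tested. Of the 19, 17 lay above 0, from -0.12 (*Vars*) to 0.40 (*Yars*). None of the 19 lay past 0.5 in either direction, as against 0.618% of 7441 genes above it and 0.148% below. In PC20 the 1118 cells of each class had at least 29 or at most 18 such UMIs. The cytosolic sum was 3304 CPM in the upper and 2772 CPM in the lower class (0.25, 0.23 to 0.27). The median was 0.21, beside -0.016 over all genes tested, with 16 of 19 above 0. The share of all genes above 0 was not computed in either library. The range ran from -0.30 (*Qars*) to 0.34 (*Eprs*). Again 0 of 19 lay past 0.5, as against 1.44% of 7293 genes above and 2.18% below. In both libraries the genes above 0.5 include score genes, which the ordering itself put there. These differences within a library were smaller than the 1.67 between the libraries, but the 2 contrasts are not alike. *Atf4* itself had a log2 ratio of 0.14 between the classes in PC5 and 0.36 in PC20, against 2.05 between the libraries. The part of ATF4 in either contrast was not tested. The mitochondrial medians were -0.037 in PC5 and 0.13 in PC20. The cut scores were shared by 695 and 1459 cells in PC5 and by 141 and 221 in PC20, so the classes are ranges of a score and not cell types. Median depth before thinning was 21697 UMIs in the upper and 23289 in the lower class of PC5, and 31068.5 and 36744.5 in PC20.

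The libraries could also be set side by side at a like score sum, though not at a like make-up of the score. *Ddit3* gave 2125 of the thinned score UMIs in PC5 and 44307 in PC20, while *Psat1* gave 9985 and 10379 and *Slc7a11* 8820 and 5773. Among thinned cells with 10 to 20 UMIs of the 9 targets, a range chosen after seeing the data, there were 515 PC5 cells and 1564 PC20 cells. They were 5.82% of thinned PC5 cells and 35.0% of thinned PC20 cells. The upper class of PC5 began at 6 such UMIs and the lower class of PC20 ended at 18. The range thus took high scores of PC5 and low scores of PC20. Whether ATF4 activity was alike in the cells of this range was not tested. The cytosolic median log2 ratio of PC20 over PC5 was 1.56 in these cells and the mitochondrial median 0.92. In these cells 16 cytosolic genes lay above 0.5, but the share of all genes above 0.5 was not computed in them.

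The libraries also differed in the share of cells with proliferation markers. *Mki67* and *Top2a* are genes of dividing cells, and a cell with a UMI of either is called cycling here. That held for 45.0% of kept PC5 cells and 72.2% of kept PC20 cells, and after thinning for 35.1% and 58.7%. The part of free RNA in these shares was not tested. Thinned cells with such a UMI were set against those with neither, 3102 against 5745 in PC5 and 2626 against 1848 in PC20. The cytosolic median log2 ratio, cycling over the rest, was 0.17 in PC5 and 0.14 in PC20, beside 0.057 and 0.036 over all genes tested. Of the 19, 1 gene lay above 0.5 in each library and 0 under -0.5, as against 5.58% of genes above and 1.51% below in PC5 and 6.77% and 1.47% in PC20. It was *Vars* both times, at 49.6 CPM in cycling and 32.3 CPM in other PC5 cells (0.62, 0.52 to 0.71), and at 159.6 and 109.2 CPM in PC20 (0.55, 0.47 to 0.62). The shares of all genes above 0.5 include *Mki67* and *Top2a*, by which the cells were split. The mitochondrial medians were 0.18 in PC5 and 0.0064 in PC20. In cells without *Mki67* or *Top2a* UMIs, 5475 in PC5 and 1321 in PC20, the cytosolic ratio of PC20 over PC5 had a median of 1.72.

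**Figure D5:**
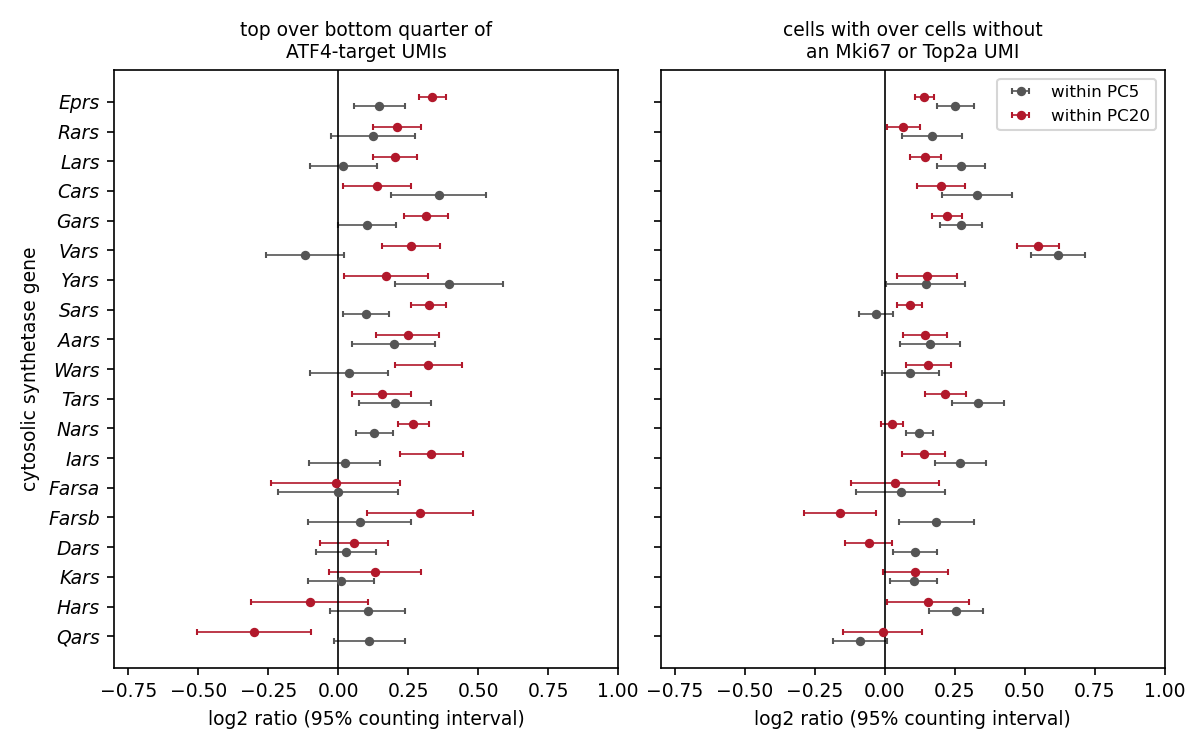
Log2 ratio (x axis, with 95% counting intervals) of each cytosolic synthetase gene (y axis) between classes of thinned cells, upper over lower 25% of cells by ATF4-target UMIs on the left and cells with over cells without an *Mki67* or *Top2a* UMI on the right, within PC5 in grey and within PC20 in red. *Vars* stands apart on the right at 0.62 and 0.55, and *Qars* lies lowest on the left at -0.30 in PC20.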

How the data were processed

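Cultured mouse brain PCs were profiled with 10x Genomics 3′ kit v3.1, 1 library per passage. The deposited values are raw UMI counts per gene and cell barcode, which the authors made with Cell Ranger 5.0 on mm10, per the submitters' processing notes, with no normalization. Libraries were grouped by the passage in their titles. Cells with more than 1000 genes and under 20% mt- UMIs were kept, as in the study. No doublet caller was run and no doublets were removed.

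UMIs were summed over kept cells and scaled to CPM. Intervals at the 95% level (exact Poisson for CPM, conditional binomial for log2 ratios) cover counting error in these libraries only. No test was made, since cells of 1 library are not replicates. For values per cell, cells were thinned to 10500 UMIs. Counts of genes past 0.5 or 1 used genes with a UMI in at least 10% of cells. Python 3.11.15, numpy 2.4.6, scipy 1.17.1 and pandas 2.3.3 were used, and the computation was tested on simulated data.

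The members and lists were chosen with earlier results of these data known, and all 34 members could be named. Alternatives were other scalings, cell filters, thinning, means over cells, cells without cycling markers, another low-value filter, a pseudocount of 1, other widths and genes of the score, a like score range and *Lars2* without its highest cells. Of the motif matches, 1 is not reported here.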

Additional observations from a re-analysis of the deposited data

How the results depend on the processing

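The log2 ratio of PC20 over PC5 kept its sign for 34 of 34 genes in 6 of the settings, and for 33 of 34 with median-of-ratios size factors and with a total without mt- and ribosomal protein genes, the exception being *Kars*. Of the 6, the lower filter (a UMI in at least 1% of cells) left the ratios unchanged by construction. The pseudocount setting must share its signs with the mean over cells, so neither it nor the lower filter adds a check of sign. In cells with 10 to 20 UMIs of the ATF4 targets, chosen after seeing the data, 31 of 34 genes kept their sign (*Kars*, *Hars2* and *Mars2* did not). Such scores are high for PC5 and low for PC20. The cytosolic median in those cells was 1.56, the mitochondrial 0.92 and their difference 0.63. Without *Mki67* or *Top2a* cells the cytosolic median was 1.72. With a pseudocount of 1 on means per 10000 UMIs the medians were 0.66 and 0.054 and their difference 0.60. Then 12 cytosolic and 1 mitochondrial gene (*Lars2*) lay above 0.5, because the pseudocount shrinks the ratios of sparse genes. The share of all genes above 0.5 was not computed in that setting. Some within-library medians turned in sign or changed in size. Between the upper and lower 25% of cells by ATF4-target UMIs, the mitochondrial median in PC5 turned from -0.037 to 0.032 with 10% of cells on each side and to 0.042 without cycling cells, and the cytosolic median in PC20 went from 0.21 to 0.41 and 0.32. For cycling cells of PC20 the cytosolic median was 0.063 without thinning, and the mitochondrial median turned from 0.0064 to -0.078 without thinning and to -0.011 with a stricter cell filter (more than 2000 genes, under 10% mt- UMIs). The cause of these shifts was not tested. No paired analysis was possible because each passage has 1 library, and for the same reason no library could be left out. Sparse mitochondrial genes limit what the classes of cells can show: in PC5 2 and in PC20 6 of the 15 passed the filter there.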

Other observations

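Genes that act on tRNAs before charging went in both directions. Of 8 genes of tRNA export and processing, 5 had a log2 ratio of PC20 over PC5 above 0 and 3 below, with a median of 0.51. The 5 are 62.5%, beside 50.5% of all genes past the filter. Above 0.5 lay 4 and under -0.5 lay 0, beside 31.7% and 30.1% of all genes past the filter. *Ssb*, which binds the ends of new tRNA transcripts as the La protein, stood at 115.7 in PC5 and 222.6 CPM in PC20 (0.94, 0.92 to 0.97). *Xpot*, the nuclear export receptor of tRNAs, stood at 35.3 and 65.1 CPM (0.88, 0.84 to 0.92). *Pus1*, a pseudouridine synthase, had a ratio of 0.92 and *Trmt1*, a tRNA methyltransferase, 0.56. *Trnt1*, which adds the CCA end, stood at 46.1 and 41.9 CPM (-0.14, -0.18 to -0.09), and *Elac2*, which removes the 3′ trailer, at 10.6 and 9.12 CPM (-0.21, -0.30 to -0.12). *Nsun2* was the other gene below 0, at 48.6 and 47.1 CPM (-0.043).

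Cell depth did not order the cytosolic genes in the same way in both libraries. Over 4 equal groups of cells from shallow to deep, the cytosolic sum went from 930.6 to 1025 CPM in PC5, and stood at 3021, 3355, 3363 and 2962 CPM in PC20. The mitochondrial sum went from 141.4 to 129.6 CPM in PC5 and from 300.2 to 181.9 CPM in PC20, where the shallow group also holds shallow cells with many *Lars2* UMIs.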
